A study of Mus musculus with 16 samples.

Results

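VSM_20, VSM_22 and VSM_27 are 3 small clusters that the depositors named as vascular smooth muscle cells (VSM) in single-cell RNA sequencing of mouse brown adipose tissue. They were taken by name from a deposited table of 24352 cells in which 28 clusters carry a name, and they held 918 cells, or 3.77% of the named cells. VSM_20 had 343 cells (1.41%), VSM_22 had 335 (1.38%) and VSM_27 had 240 (0.986%). The names fixed which cells belong to which cluster, and cells were not taken by housing temperature or replicate. The clusters themselves were chosen with earlier results of these data known.

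The study sequenced the stromal vascular fraction, meaning the cells other than fat cells, of interscapular brown fat from C57BL6J mice. Mice lived at 30 °C (thermoneutral), at 22 °C (room temperature), or at 5 °C for 2 days or for 7 days, and each of the 4 housings gave 4 libraries. Every preparation went through enzymatic digestion, removal of the adipocyte layer, lysis of red blood cells and depletion of dead cells before loading. The labels name no age, and they do not say whether a library came from 1 animal or from several, so p-values measure the spread between libraries.

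Vascular smooth muscle cells form the contractile wall of arteries, arterioles and veins and set vessel diameter. They are commonly recognised by Acta2, which encodes smooth muscle actin, Myh11, which encodes the smooth muscle myosin heavy chain, and Tagln, which encodes the actin-binding protein transgelin. In brown fat, sympathetic nerves that drive heat production in the cold also reach the vessels. The data analysed were annotations of each cell (cluster, library, UMI count, detected genes, mitochondrial fraction and cell cycle call) and held no gene values. The smooth muscle names were therefore not checked against Acta2, Myh11 or Tagln, doublets were not called, and cells could not be thinned to an equal number of UMIs (unique molecular identifiers, each standing for 1 captured RNA molecule).

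A total of 109723 cells was annotated in 16 libraries of 1473 to 10005 cells. The named cells came from 15 of them, with 357 to 3739 named cells and 132 to 2006 VSM cells per library. Replicate 1 of the 2-day cold group stood apart. It held 10001 annotated cells in which mitochondrial RNA made up 29.1% at the median, where the other libraries had 2.47% to 6.01%, and had no named cell, so the 2-day cold group has 3 replicates for everything that uses names. Among the cells of the 3 clusters none of the 918 barcodes occurred in more than 1 library. Repeats in cells outside these clusters were not counted. Among all named cells 77 of 24275 barcodes occurred in more than 1 library. At that rate so small a set would hold few or none, so the 2 counts are not compared. Median UMI counts of named cells averaged 8240 ± 2207 (SD, n = 7) in replicates numbered 1 and 2 and 6178 ± 1357 (SD, n = 8) in replicates numbered 3 and 4. The labels give no batch, so differences were also taken within each of these 2 sets of libraries.

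The 3 clusters belonged to a family of 10 VSM clusters with 12372 cells, of which they made up 7.42%. By size they ranked 7, 9 and 10 within that family. The largest member, VSM_0, had 2287 cells. VSM_20 and VSM_22 had cells in all 15 libraries, and VSM_27 in 13. The replicate 4 thermoneutral library supplied the most VSM_20 cells, 12.5% of the cluster. The replicate 1 thermoneutral library supplied 25.1% of VSM_22, and the replicate 3 room-temperature library 30.0% of VSM_27. The 3 libraries richest in each cluster held 35.9%, 47.5% and 57.9% of VSM_20, VSM_22 and VSM_27. VSM_27 was thus the smallest and the most unevenly spread.

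The clusters differed in how soon they separated when the depositors' graph clustering of the named cells was made finer. Resolution is the setting that sets how finely the graph is divided. VSM_20 split off early: at a resolution of 0.4, with 18 clusters in all, 90.7% of its cells sat in 1 cluster that was 96.6% VSM_20. It stayed separate at every finer resolution, making up 95.8% to 100.0% of the cluster that held most of it. VSM_22 did not separate as steadily. At resolutions of 0.4 to 1.0 between 94.0% and 98.2% of its cells lay in a cluster led by VSM_0, the largest VSM cluster, where they made up 8.43% to 13.5%. VSM_22 stood alone at 1.2, the resolution whose clusters carry the names, rejoined a VSM_0-led cluster at 1.4 (17.5% of it) and was again 90.2% of a cluster of its own at 1.8. VSM_27 was 99.6% of a cluster at 0.8, fell back at 1.0 into a cluster led by VSM_7 of which it was 14%, and was separate from 1.2 on.

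**Figure D1:**
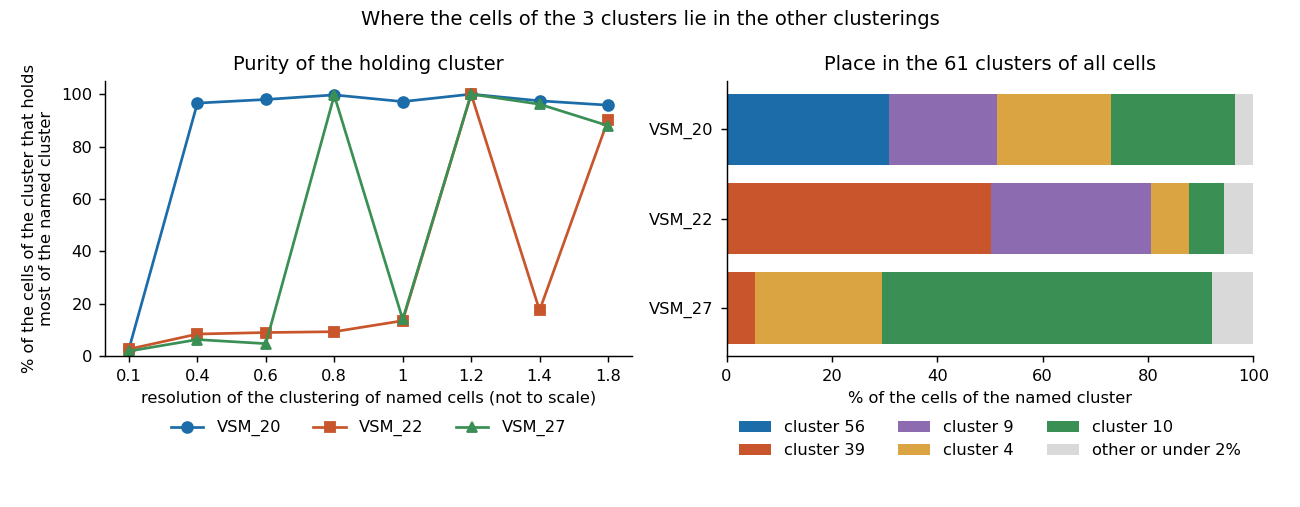
Left, the share that each of VSM_20, VSM_22 and VSM_27 made up of the cluster holding most of its cells (vertical axis, percent) at each clustering resolution of the named cells; right, the percent of each of the 3 in clusters of all cells at a resolution of 1.8. VSM_20 is above 95% from 0.4 on, VSM_22 drops back to 17.5% at 1.4 and VSM_27 to 14% at 1.0, and on the right 62.5% of VSM_27 lies in cluster 10.

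In the separate clustering of all 109723 cells the 3 clusters were less distinct. At the finest resolution of 1.8, which made 61 clusters, VSM_20 was spread mainly over 4 of them, with 30.9% in cluster 56 and 20.4% to 23.6% in each of clusters 9, 10 and 4. Cluster 56 was nevertheless mostly VSM_20, which was 80.3% of its 132 cells. VSM_22 had 50.1% of its cells in cluster 39, where it made up 35.0% of 480 cells beside cells of VSM_7. VSM_27 had no cluster of its own, with 62.5% in cluster 10 and 24.2% in cluster 4, where VSM_0 and VSM_1 were the most common names. Clusters 39 and 56 also give a view of the 2-day cold library without named cells. It had 33 cells of cluster 39 (0.330% of its cells) and 10 of cluster 56 (0.10%). Both were within the range of the other 2-day cold libraries, which was 0.246% to 0.460% for cluster 39 and 0.060% to 0.154% for cluster 56. In clusters 4, 9 and 10, where other VSM clusters were the most common names, it had 1.07%, 1.50% and 1.44% of its cells. Each of these was below the lowest of the other 2-day libraries, at 3.45%, 1.57% and 1.55%.

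The first question was whether housing temperature changed how common each cluster was. VSM_20 had overlapping shares of the named cells in all 4 housings, with a wide spread between libraries. In the thermoneutral libraries 1 to 4 it had 31, 2, 41 and 43 cells, or 0.829%, 0.375%, 2.96% and 1.68% of named cells. At room temperature the shares were 1.78%, 1.23%, 2.04% and 1.12%. The widest range was thus among the thermoneutral libraries, and it contained every room-temperature value. After 2 days in the cold VSM_20 made up 1.27%, 2.48% and 0.802% of named cells in replicates 2 to 4. After 7 days it made up 0.893%, 0.655%, 0.818% and 1.91% in replicates 1 to 4, from 7, 7, 5 and 9 cells. All 4 groups overlapped, and their means were 1.46% ± 1.14 (SD, n = 4), 1.55% ± 0.440 (SD, n = 4), 1.52% ± 0.865 (SD, n = 3) and 1.07% ± 0.572 (SD, n = 4), in the order of falling temperature and longer cold.

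VSM_22 varied more after 7 days of cold than in the other cold group. Thermoneutral replicates 1 to 4 had 84, 8, 8 and 22 cells, or 2.25%, 1.50%, 0.577% and 0.861% of named cells. Room-temperature libraries had 0.952%, 0.650%, 0.890% and 1.4%, and the 2-day cold replicates 2 to 4 had 1.51%, 1.17% and 1.74%. The 2-day values sat inside the thermoneutral range. After 7 days the shares were 2.30%, 1.12%, 4.58% and 0.851%, from 18, 12, 28 and 4 cells. The highest share of all 15 libraries, 4.58% in replicate 3, and a value below every 2-day library, 0.851% in replicate 4, both came from that group. Group means were 1.3% ± 0.742 at thermoneutrality, 0.973% ± 0.313 at room temperature and 2.21% ± 1.70 after 7 days (SD, n = 4 each), and 1.47% ± 0.287 after 2 days (SD, n = 3).

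VSM_27 was lowest in the cold libraries, though not in all of them. Thermoneutral replicates 1 to 4 had 11, 5, 21 and 41 cells, or 0.294%, 0.936%, 1.52% and 1.60% of named cells. Room-temperature libraries had 0.952%, 0.845%, 3.77% and 1.68%, from 16, 26, 72 and 6 cells. The 2-day cold replicates 2 to 4 had 0.198%, 1.43% and 0.189%, from 5, 22 and 4 cells. Replicate 3 of that group lay in the middle of the thermoneutral and room-temperature libraries, and the other 2 lay below all of them. Replicates 1 and 2 of the 7-day group had 0 VSM_27 cells among 784 and 1068 named cells, which allows shares of up to 0.383% and 0.281% from a limit of 3 cells, a limit that covers counting error only. Replicates 3 and 4 had 5 and 6 cells, or 0.818% and 1.28%. The 7-day mean was 0.524% ± 0.633 (SD, n = 4), against 1.09% ± 0.606 at thermoneutrality, 1.81% ± 1.36 at room temperature (SD, n = 4 each) and 0.607% ± 0.716 after 2 days (SD, n = 3).

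**Figure D2:**
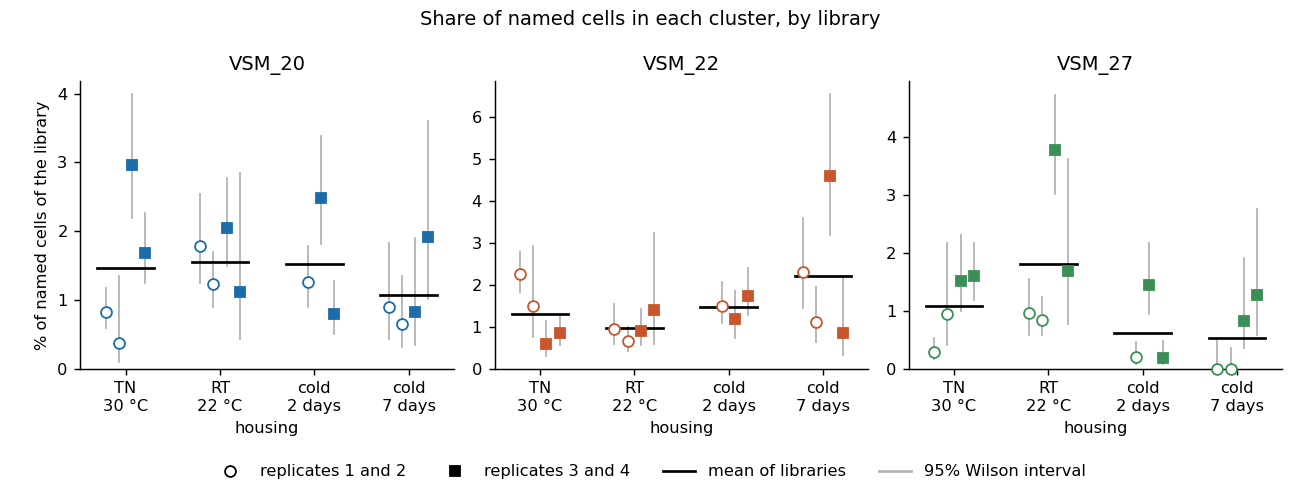
Share of named cells (percent) taken by VSM_20, VSM_22 and VSM_27 in each of the 15 libraries, by housing (TN, thermoneutral; RT, room temperature); open circles are replicates 1 and 2, filled squares replicates 3 and 4, black lines group means and grey lines 95% Wilson intervals of a library. VSM_27 is at 0 in 2 of the 4 libraries of 7 days in the cold, and VSM_22 reaches 4.58% in another of them.

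None of these share differences passed the test. A limma fit was made to the log2 odds of each cluster's share over 27 named clusters, and an adjusted p below 0.05 was the threshold. Between room temperature and thermoneutrality 0 of the 3 clusters were called, and 0% of all tested clusters were. VSM_20 differed by 0.39 ± 0.58 (SE, limma adjusted p = 0.748), VSM_22 by -0.27 ± 0.56 (0.775) and VSM_27 by 0.73 ± 1.07 (0.748) in log2 odds of the share. In libraries numbered 1 or 2 and in those numbered 3 or 4 these share differences were 1.28 and -0.50 for VSM_20, -1.25 and 0.70 for VSM_22, and 0.71 and 0.74 for VSM_27, so only that of VSM_27 had the same sign in both sets. After 2 days of cold against thermoneutrality 0 of the 3 were called where 11.1% of all tested clusters were, with log2 odds differences of 0.22 ± 0.63 for VSM_20, 0.33 ± 0.60 for VSM_22 and -1.22 ± 1.16 for VSM_27 (limma adjusted p from 0.424 to 0.759). Here too the share differences in the 2 sets had opposite signs for VSM_20 (1.05 and -0.66) and VSM_22 (-0.32 and 1.00) and the same sign for VSM_27 (-1.37 and -1.52), with 1 cold library in the first set.

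The 7-day comparison moved more clusters of the series than either of those, and still none of these 3. Against thermoneutrality 37% of all tested clusters were called. VSM_20 differed by -0.19 ± 0.58 in log2 odds of the share (limma adjusted p = 0.754, 95% interval -1.43 to 1.06), VSM_22 by 0.68 ± 0.56 (0.312) and VSM_27 by -1.95 ± 1.07 (0.136). The median difference over all tested clusters was 0.68, so VSM_22 sat at the median and the other 2 below it. Against room temperature 7.41% of all tested clusters were called, and VSM_27 differed by -2.67 ± 1.07 (limma adjusted p = 0.086, unadjusted p = 0.025). The 95% interval of that VSM_27 share difference ran from -4.97 to -0.38. VSM_20 and VSM_22 differed by -0.58 ± 0.58 and 0.95 ± 0.56 there (limma adjusted p = 0.393 and 0.184), and the remaining comparisons, 2 days of cold against room temperature and 7 days against 2 days, had adjusted p from 0.343 to 0.894. These comparisons share libraries, so their values are not independent of each other.

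VSM_27 also differed between replicate numbers. Its share averaged 0.461% of named cells over the 7 libraries with numbers 1 and 2 and 1.54% over the 8 libraries with numbers 3 and 4. The order was the same in every housing: 0.615% against 1.56% at thermoneutrality, 0.898% against 2.73% at room temperature, 0.198% against 0.811% after 2 days and 0% against 1.05% after 7 days. With that split as a term in the limma fit, the share of VSM_27 was 2.27 ± 0.54 higher in log2 odds in replicates 3 and 4 (adjusted p = 0.009), where 18.5% of the 27 clusters were called for the split. In the same fit the share of VSM_27 after 7 days of cold was lower than at thermoneutrality by a log2 odds difference of -1.95 ± 0.73 (adjusted p = 0.034, with 63% of all tested clusters called) and lower than at room temperature by -2.67 ± 0.73 (adjusted p = 0.017, with 29.6% called). Without the split, leaving out replicate 4 of the 7-day group also made both calls. The log2 odds differences were then -2.78 (limma adjusted p = 0.047) and -3.51 (adjusted p = 0.035). The share of all 27 clusters called in that fit was not counted, so these calls do not set VSM_27 apart. Leaving out any other library made neither call. The differences then shrank to as little as -1.14 and -1.87, with limma adjusted p of up to 0.386 and 0.236. Within replicates 1 and 2 the share difference between 7 days and thermoneutrality was -3.37, a value that depends on the 0.5 cells added to counts of 0, and within replicates 3 and 4 it was -0.52. The VSM_27 difference was thus far larger in the set whose 7-day libraries held no such cell, and whether the split by number reflects a batch was not tested.

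The split was not called for the other 2 clusters. The share of VSM_20 was 0.77 ± 0.38 higher in log2 odds in replicates 3 and 4 (limma adjusted p = 0.172), and that of VSM_22 differed by -0.14 ± 0.41 (adjusted p = 0.771). For VSM_20 the share difference between 7 days of cold and thermoneutrality was 0.39 in libraries numbered 1 or 2 and -0.76 in libraries numbered 3 or 4. For VSM_22 it was -0.19 and 1.55. The sign of both thus depended on which libraries were compared, whereas the VSM_22 difference between 7 days and room temperature was 1.05 and 0.85, positive in both sets.

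The share of named cells moves with every other named population, so the same cells were also counted against the VSM cells of their library. That scale was chosen after seeing the data. On it the mean share of VSM_22 was higher after 7 days in the cold than in the other housings. Thermoneutral replicates had 4.19%, 3.62%, 0.839% and 1.23% VSM_22 among VSM cells, and room-temperature replicates had 1.74%, 1.01%, 1.50% and 3.60%. The 2-day cold replicates 2 to 4 had 4.07%, 2.61% and 5.08%, and the 7-day replicates 9.0%, 4.05%, 11.2% and 3.03%. Of the 7-day libraries, 3 were above every room-temperature library and replicate 4, with 4 such cells, was not. The means were 2.47% ± 1.68, 1.96% ± 1.13 and 6.83% ± 3.93 (SD, n = 4 each) at thermoneutrality, at room temperature and after 7 days, and 3.92% ± 1.24 (SD, n = 3) after 2 days.

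Against room temperature the 7-day share of VSM_22 among VSM cells was higher by a log2 odds difference of 1.84 ± 0.61 (limma adjusted p = 0.048 over the 10 VSM clusters, of which 20% were called). Among named cells the same comparison was not called (limma adjusted p = 0.184). The difference among VSM cells was 2.27 in libraries numbered 1 or 2 and 1.41 in libraries numbered 3 or 4. The call was close to the threshold. It was lost when any of the room-temperature replicates 1, 2 or 3, the 7-day replicates 1 or 3, the thermoneutral replicate 4 or any 2-day library was left out, with adjusted p from 0.052 to 0.175. It was also lost with the replicate number as a block (adjusted p = 0.058), and the size of the difference without any 1 library stayed between 1.53 and 2.22. The call concerns the makeup of the VSM cells, which themselves numbered 132 to 296 in the 7-day libraries and 139 to 1983 at room temperature. Of all cells of a library VSM_22 was 0.307% ± 0.177 at room temperature and 0.297% ± 0.0466 after 7 days (SD, n = 4 each), a log2 odds difference in the share of 0.10 (limma adjusted p = 0.922). Against thermoneutrality the share difference was 1.66 ± 0.61 (limma adjusted p = 0.084, with 10% of the VSM clusters called), with 0.67 within replicates 1 and 2 and 2.65 within replicates 3 and 4.

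VSM_20 and VSM_27 were not called among VSM cells in any of the 6 comparisons. Of all VSM clusters 0% were called at room temperature and 10% after 2 days against thermoneutrality, 0% after 2 days against room temperature and 10% after 7 days against 2 days. The mean share of VSM_20 was 2.29% ± 1.47 at thermoneutrality, 2.88% ± 0.682 at room temperature and 3.67% ± 2.19 after 7 days (SD, n = 4 each), and 3.76% ± 1.62 (SD, n = 3) after 2 days. Its difference between 7 days and thermoneutrality was 0.77 ± 0.50 in log2 odds of the share (limma adjusted p = 0.363), which has the opposite sign to the difference among named cells. VSM_27 averaged 1.83% ± 0.853, 3.43% ± 2.36 and 1.64% ± 2.16 of VSM cells (SD, n = 4 each) at thermoneutrality, at room temperature and after 7 days, and 1.43% ± 1.53 (SD, n = 3) after 2 days. After 7 days its share difference was -1.01 ± 1.03 against thermoneutrality (adjusted p = 0.489) and -1.85 ± 1.03 against room temperature (adjusted p = 0.291). Without 7-day replicate 4 the second was called, at -2.72 (adjusted p = 0.043, with the share of VSM clusters called not counted). The first ran from -1.88 without 7-day replicate 4 to -0.24 without 7-day replicate 2. Within replicates 3 and 4 the difference from thermoneutrality was 0.54, the opposite sign to the difference among named cells of the same libraries.

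**Figure D3:**
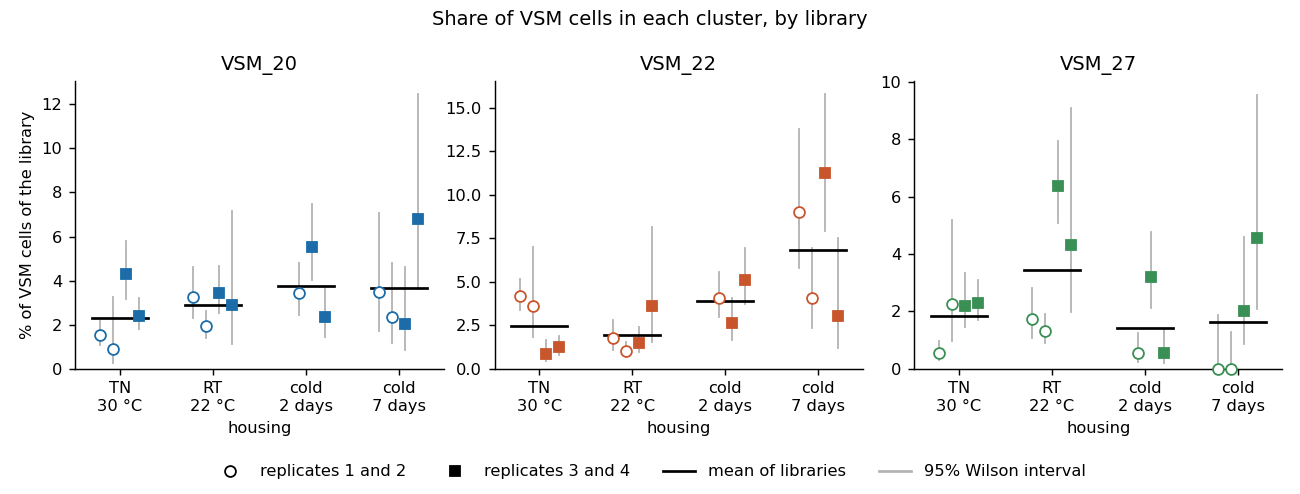
Share of VSM cells (percent) taken by VSM_20, VSM_22 and VSM_27 in each of the 15 libraries, by housing; open circles are replicates 1 and 2, filled squares replicates 3 and 4, black lines group means and grey lines 95% Wilson intervals of a library. VSM_22 reaches 9.0% and 11.2% in 2 of the 7-day libraries and is at most 5.08% in the libraries of the other groups.

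Counted together, the 3 clusters had group means from 3.60% to 4.33% of the named cells, with single libraries from 1.78% (7-day replicate 2) to 6.70% (room-temperature replicate 3). Of the VSM cells they held 6.58% ± 0.615 at thermoneutrality, 8.27% ± 3.38 at room temperature and 12.1% ± 3.99 after 7 days (SD, n = 4 each), and 9.10% ± 1.92 (SD, n = 3) after 2 days. The thermoneutral libraries ran from 5.93% to 7.34% and the 7-day libraries from 6.42% to 15.3%, so the groups overlapped by the lowest 7-day library. Their makeup varied widely between libraries. VSM_22 was 38.0% ± 26.2 of their cells at thermoneutrality and 57.5% ± 24.7 after 7 days (SD, n = 4 each), whereas VSM_27 was 27.7% ± 13.1 and 11.2% ± 14.9. At room temperature VSM_22 was 24.1% ± 8.27 and VSM_27 38.3% ± 13.4 of them (SD, n = 4 each). The log2 ratio of VSM_22 to VSM_27 cells was 0.32 ± 1.90 at thermoneutrality and 2.92 ± 2.61 after 7 days (SD, n = 4 each), a difference of 2.60 with a two-sided exact permutation p of 0.171. Over the 9 exact permutation tests of such ratios against thermoneutrality the smallest adjusted p was 0.698, and the smallest p that 4 against 4 libraries allow is 0.0286. The 3 tests of 2-day cold libraries, 3 against 4, cannot go below 0.0571, and no test of this size shows that the makeup was the same.

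The spread between libraries was larger than counting cells alone would give. The chi-square of the counts within groups divided by its degrees of freedom, which is near 1 for binomial counting, was 6.21 for VSM_20, 5.57 for VSM_22 and 14.3 for VSM_27 among named cells. VSM_22 was close to 1 at room temperature (1.01) and after 2 days (0.979), and its excess came from the thermoneutral (9.81) and 7-day libraries (8.94). VSM_27 was above 6 in every group.

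The 3 clusters differed from each other in RNA content and in mitochondrial share. Over all cells the median UMI count was 9611 in VSM_20, 7597 in VSM_22 and 6272 in VSM_27, and the median number of detected genes was 2873, 2402 and 2222.5. The median mitochondrial share of UMIs, which is often raised in damaged cells and also in cells rich in mitochondria, was 6.29%, 10.5% and 8.52%. Among the 10 VSM clusters VSM_22 ranked 1 and VSM_27 ranked 2 by mitochondrial share, and VSM_20 ranked 9. Cells with a mitochondrial share of at least 20% were 0% of VSM_20, 3.58% of VSM_22 and 0.417% of VSM_27. The names came from clustering the same cells, so these contrasts describe the clusters and carry no test.

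Within libraries the mitochondrial contrast with the rest of the family was regular for VSM_20 and VSM_22. Compared with the other 7 VSM clusters of the same library, in libraries with at least 5 cells of the cluster, the median mitochondrial share of VSM_20 was lower in 13 of 13, by 0.770 to 3.39 percentage points with a median difference of -1.76. That of VSM_22 was higher in 14 of 14 libraries, by 0.821 to 6.46 points with a median of 2.81. VSM_27 was close to the rest of the family, higher in 10 of 12 libraries with a median difference of 0.190 points. VSM_22 and VSM_27 also had fewer UMIs than the pooled cells of the other 7 VSM clusters. The ratio of medians was below 1 in 13 of 14 libraries for VSM_22 (median 0.871) and in 12 of 12 for VSM_27 (median 0.837). VSM_20 had the higher median UMI count in 9 of 13 libraries, with a median ratio of 1.10. This contrast does not hold against each cluster singly. By median UMI count over all cells VSM_20 ranked 3, VSM_22 ranked 6 and VSM_27 ranked 9 among the 10 VSM clusters. VSM_21 was lowest, at 3120 UMIs.

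**Figure D4:**
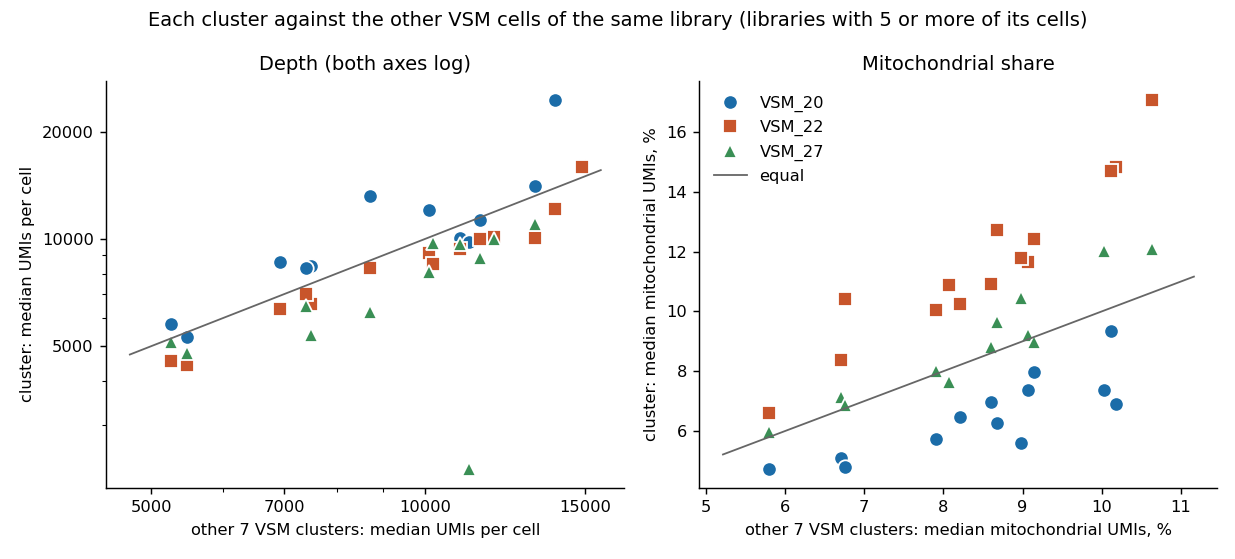
Median UMI count per cell (left, log axes) and median mitochondrial share (right, percent) of VSM_20, VSM_22 and VSM_27 (vertical axes) against those of the other 7 VSM clusters of the same library (horizontal axes); each point is a library with at least 5 cells of the cluster and the line marks equal values. VSM_22 lies above the line in mitochondrial share in 14 of 14 libraries and VSM_20 below it in 13 of 13.

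Median UMI counts of VSM_20 were higher after 7 days of cold, a difference that did not pass the test and was partly shared by the other VSM cells. Median UMI counts of VSM_20 were 8389, 5308 and 8315 in thermoneutral replicates 1, 3 and 4; replicate 2 had only 2 cells, with a median of 10230.5, and was left out of the fit. They were 24660, 16057, 13171 and 9801 in 7-day replicates 1 to 4, which come from 5 to 9 cells each. The 7-day values were above those of the 3 fitted thermoneutral libraries, though replicate 4 was below the 2 cells of thermoneutral replicate 2. The means were 15922 ± 6361 (SD, n = 4) and 7337 ± 1758 (SD, n = 3). The log2 difference in median UMI count was 1.07 ± 0.40 (limma adjusted p = 0.087), where 0% of all tested clusters were called and their median difference was 0.25. The other 7 VSM clusters of the same libraries had medians of 7491.5, 11933, 5479 and 7408 UMIs at thermoneutrality and 13898, 14877, 8704 and 11177 after 7 days. Relative to all VSM cells of the library the VSM_20 difference in UMI count was 0.25 (limma adjusted p = 0.343). With the split of replicates 1 and 2 against 3 and 4 as a covariate the VSM_20 difference in UMI count was 0.95 with an adjusted p of 0.018 (28% of all tested clusters were called), and within the 2 sets it was 1.25 and 0.77.

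The UMI counts of VSM_22 and VSM_27 did not pass the test either. After 7 days of cold the log2 difference from thermoneutrality was 0.80 ± 0.40 for VSM_22 (limma adjusted p = 0.147), whose mean of library medians went from 7027 ± 2353 (SD, n = 4) to 12121 ± 3808 (SD, n = 3). For VSM_27 it was -0.77 ± 0.45 (adjusted p = 0.168), with 2 7-day libraries, at 6244 and 2255.5 UMIs from 5 and 6 cells. Without 7-day replicate 4 this VSM_27 difference was -0.035 and without replicate 3 it was -1.50, so 1 library decides its size. Taken relative to all VSM cells of the same library, the VSM_27 difference in UMI count was -1.09 with a limma adjusted p of 0.043, from the same 2 libraries. How many of all tested clusters were called in that fit was not counted. After 2 days of cold and at room temperature the UMI counts of none of the 3 clusters were called against thermoneutrality (limma adjusted p from 0.862 to 0.931), nor were those of any tested cluster (0% in each).

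The mitochondrial share of none of the 3 clusters passed the test against thermoneutrality. VSM_22 had medians of 8.38%, 10.9%, 12.7% and 11.7% in thermoneutral replicates 1 to 4 and of 14.8%, 14.7% and 11.8% in 7-day replicates 1 to 3. The 7-day values overlapped the thermoneutral ones through replicate 3. The difference was 2.87 ± 1.83 percentage points (limma adjusted p = 0.276), against 1.06 ± 1.02 for VSM_20 (0.423) and 2.83 ± 1.43 for VSM_27 (0.211), where 4% of all tested clusters were called. In libraries numbered 1 or 2 and in those numbered 3 or 4 the difference was 5.14 and -0.40 points for VSM_22. For VSM_20 it was 3.04 and -0.34 points, so among the fitted libraries both had opposite signs in the 2 sets. The second VSM_22 value rests on 7-day replicate 3 alone. Replicate 4, with 4 cells and a median of 14.8%, was left out of the fit. The first VSM_20 value rests on thermoneutral replicate 1 alone, because replicate 2 had 2 cells. VSM_27 had a value only in the second set, at 1.81 points. At room temperature and after 2 days 0% of all tested clusters were called. After 7 days against thermoneutrality the median mitochondrial difference over all tested clusters was 1.23 points.

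Cell cycle calls had been deposited in both tables, of named cells and of all cells, and the results differed strongly. In the table of named cells 58.0% of VSM_20, 32.8% of VSM_22 and 62.1% of VSM_27 were called S or G2M, the phases of DNA replication and of preparation for division. In the table of all cells the same cells were called S or G2M in 7.58%, 3.58% and 12.9%, and the 2 tables gave the same phase to 49.6%, 70.7% and 50.8% of cells. Because the calls depended on the table to that extent, the shares are not read as shares of dividing cells. VSM_22 was lowest of the 3 in both tables. Against the cells of the other VSM clusters of its library, its S or G2M share in the table of named cells was lower in 13 of 14 libraries. The median difference was -14.3 percentage points. Pooled over libraries VSM_22 was the lowest VSM cluster in that table, with VSM_3 next at 39.3%. In the table of all cells VSM_3 was lower than VSM_22, at 2.11%, so a low share was not particular to VSM_22.

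Over housing, the S or G2M share of VSM_20 fell after 7 days of cold in the calls of the named cells and not in those of all cells. Thermoneutral replicates 1, 3 and 4 had 54.8%, 78.0% and 60.5% (replicate 2, with 2 cells, was left out of the fit), and 7-day replicates 1 to 4 had 57.1%, 28.6%, 40.0% and 44.4%. Of the 7-day values, 3 were below the 3 fitted thermoneutral ones, and each rests on 5 to 9 cells. The mean went from 64.5% ± 12.1 (SD, n = 3) to 42.5% ± 11.8 (SD, n = 4), a log2 odds difference in the S or G2M share of -1.27 ± 0.45 (limma adjusted p = 0.027). It was -0.66 in libraries numbered 1 or 2 and -1.57 in those numbered 3 or 4. The same call was made for 44% of all tested clusters, whose median log2 odds difference was -0.89. Without thermoneutral replicate 3 the difference in VSM_20 was -0.82 (adjusted p = 0.176), and without 7-day replicate 2 it was -1.02 (adjusted p = 0.090). With the calls of the table of all cells it was 1.16 (adjusted p = 0.316), the opposite direction. The shares there were 3.23%, 4.88% and 4.65% in thermoneutral replicates 1, 3 and 4. They were 14.3%, 0%, 20.0% and 0% in the 7-day replicates. That difference thus rests on very few cells called S or G2M, and its size depends on the 0.5 cells added. VSM_22 and VSM_27 had differences of -1.06 ± 0.61 (adjusted p = 0.144) and -0.64 ± 0.55 (adjusted p = 0.358) in the log2 odds of the S or G2M share after 7 days. For VSM_22 it was -0.86 and -0.98 in the 2 sets of libraries, the second from 1 7-day library, and for VSM_27 -0.98 in the second set alone. At room temperature and after 2 days none of the 3 was called against thermoneutrality, nor was any tested cluster (0% in each).

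**Figure D5:**
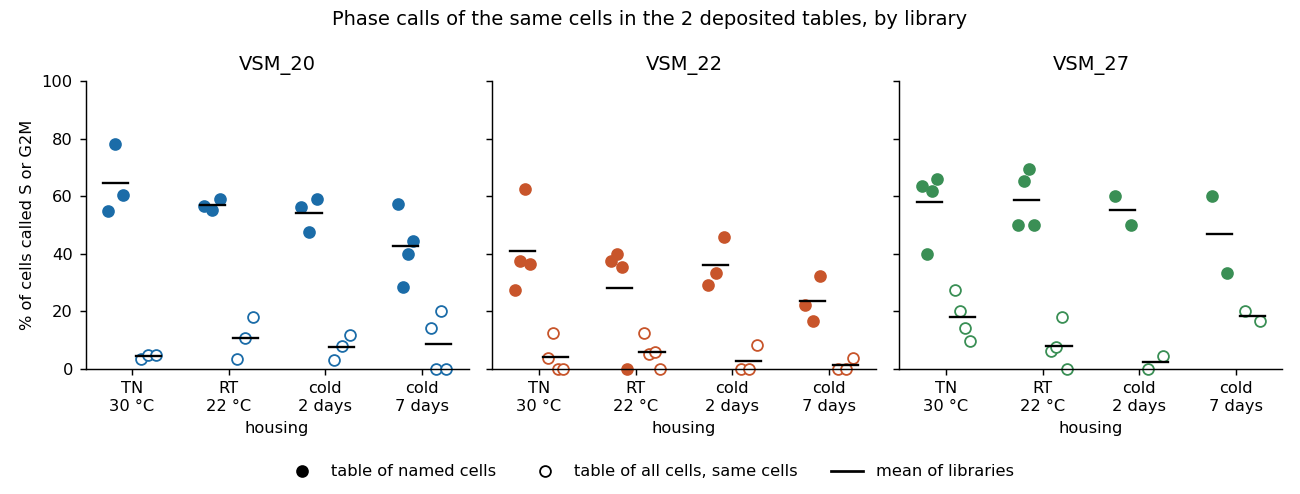
Share of cells called S or G2M (percent) in VSM_20, VSM_22 and VSM_27 per library with at least 5 such cells, by housing; filled circles use the calls of the table of named cells, open circles those of the table of all cells, and black lines are means of libraries. Over all libraries the calls of the named cells give 58.0%, 32.8% and 62.1% and those of all cells give 7.58%, 3.58% and 12.9%.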

How the data were processed

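Annotations of single cells from 16 libraries were analysed, with names for cells of 15. The submitters' processing notes name STAR, Cell Ranger 3.0.1 and the mm10 build; how cells were filtered, integrated and clustered is not given in the sources used here. Each cell's deposited UMI and gene counts are whole numbers without normalisation. The deposited mitochondrial fraction runs from 0 to 1 and is written here as percent. S and G2M scores, phase calls, cluster numbers and names were deposited by the authors and used as they stand.

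Cells were counted per cluster and library. Shares became log2 odds with 0.5 cells added. UMI medians on a log2 scale, mitochondrial medians and S or G2M log2 odds were taken for clusters with at least 5 cells in a library. Each was fitted with limma 3.58.1 in R 4.3.3 on the 4 housing groups over all named clusters (for shares, those averaging at least 10 cells per library), with Benjamini-Hochberg adjustment; edgeR 4.0.16 was an alternative. Shares among VSM cells were fitted over the 10 VSM clusters, an analysis chosen after seeing the data. Intervals and the limit for 0 cells (3 cells) cover counting error only. Libraries with the same replicate number were only partly alike. The main fits have no replicate block, and fits with one are given as alternatives. The limma fit of shares was tested on simulated cell numbers with increases planted after 7 days of cold and the same spread for every cluster. Decreases were not planted there. The clusters, lists and tests were chosen with earlier results of these data known, and beside these 3 clusters only VSM neighbours and clusters of all cells holding at least 10% of a member are named. Genes, sequences and doublets were not analysed here.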

Additional observations from a re-analysis of the deposited data

Results flagged for a closer look

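In 4 of 33 groups of 4 libraries that were examined, 1 library stood apart from the others by Dixon's test, which chance alone does in about 1 in 20 groups. VSM_27 was 0.548% of VSM cells in the thermoneutral replicate 1 library, far below the other thermoneutral libraries at 2.20% to 2.29%. The median mitochondrial share of VSM_22 was 17.1% in the room-temperature replicate 4 library, far above the others at 10.0% to 10.9%, and in the same library 0% of VSM_22 cells were called S or G2M, against 35.3% to 40.0% in the others, both from 5 cells. In VSM_27 40% of cells were called S or G2M in the thermoneutral replicate 2 library, which also had 5 such cells, against 61.9% to 65.9% in the other thermoneutral libraries.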

How the results depend on the processing

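For 63 results, 1293 alternative values were computed; 1192 kept direction and side of the threshold, 72 changed sign, 17 passed the threshold where the reported value did not and 12 lost it. Every reversal but 1, that of the S or G2M share of VSM_20 after 7 days, concerned a difference that was not called, and the cause of the changes was not tested. The replicate number as a block gave VSM_27 share differences of -1.95 (adjusted p = 0.044) from 7 days to thermoneutrality and -2.67 (0.025) to room temperature, a VSM_20 UMI difference of 1.01 (0.027), a VSM_22 difference among VSM cells of 1.84 (0.058), which lost its call, and a VSM_27 difference between 7 and 2 days among VSM cells of 0.083. The share of all tested clusters called was not counted in these block fits. Libraries with the same number were partly alike: 12 of 21 same-number pairs had a correlation of share deviations over 0.1 (median 0.22, lowest -0.30). Of 15 libraries, 7 correlated best with their own number. With the split of libraries numbered 1 or 2 from those numbered 3 or 4 as a covariate, VSM_27 shares gave -1.95 and -2.67, the UMI count of VSM_20 gave 0.95, and VSM_20 among VSM cells (7 against 2 days) 0.057; adding 1 cell gave 0.024 there and 0.090 for VSM_27. Centred log ratios gave -0.58 (VSM_20) and -0.47 (VSM_22) for 2 days against thermoneutrality and -0.071 (VSM_22) for 7 days. edgeR with TMM scaling gave VSM_20 -0.36 at room temperature and -0.38 after 2 days against thermoneutrality. Among VSM cells, VSM_20 gave 0.77 for 7 days against thermoneutrality, and 0.32 and 0.27 for 2 and 7 days against room temperature, and VSM_22 gave 1.84 for 7 days against room temperature. As a share of all cells, VSM_20 and VSM_22 gave -0.24 and -0.13 after 2 days, and VSM_22 -0.14 after 7 days against thermoneutrality, -0.0053 against 2 days and 0.10 against room temperature. Among cells at or above the median of 7085 UMIs, VSM_22 gave 0.090 at room temperature, and VSM_20 0.55, 0.32 and 0.33 for 7 days against thermoneutrality, room temperature and 2 days; VSM_27 had too few cells there. A minimum of 10 cells gave VSM_27 mitochondrial differences of -0.76 at room temperature and 0.31 after 2 days, S or G2M differences of 0.39 (VSM_22) and -0.093 (VSM_27) at room temperature and 0.27 (VSM_22) after 2 days, and no value after 7 days for VSM_20 or VSM_27. Relative to VSM cells of the library, UMI differences were -0.057 (VSM_22, room temperature), -0.025 (VSM_20, 2 days) and -1.09 (VSM_27, 7 days), and mitochondrial ones 0.0099 and -0.72 (VSM_20, room temperature and 7 days). Phase calls of all cells gave 1.01, 0.82 and -1.04 (VSM_20, VSM_22, VSM_27) at room temperature, 0.67 (VSM_20) after 2 days, and 1.16 (VSM_20) and 0.35 (VSM_27) after 7 days.

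Where a call is named below, the share of all clusters called in that fit was not counted. Leaving out each library in turn gave these ranges of the share among named cells. VSM_20 ran from -0.064 to 0.84 (room temperature against thermoneutrality), -0.23 to 0.67 (2 days), -0.64 to 0.27 (7 days), -0.60 to 0.21 (2 days against room temperature) and -0.79 to 0.028 (7 against 2 days). VSM_22 ran from -0.59 to 0.04 (room temperature) and -0.10 to 0.68 (7 against 2 days), and VSM_27 from -2.78 to -1.14 (7 days), -3.51 to -1.87 (7 days against room temperature) and -1.56 to 0.20 (7 against 2 days). Among VSM cells, VSM_20 ran from -0.014 to 0.62 (2 days against room temperature), -0.088 to 0.50 (7 days against room temperature) and -0.40 to 0.29 (7 against 2 days). VSM_22 ran from -0.59 to 0.17 (room temperature), 1.25 to 2.01 (7 days, called without thermoneutral replicates 1 or 2 or 7-day replicate 4) and 1.53 to 2.22 (7 days against room temperature). VSM_27 ran from -1.88 to -0.24 (7 days), -2.72 to -1.08 (7 days against room temperature, called without 7-day replicate 4) and -1.24 to 0.46 (7 against 2 days). Against thermoneutrality, log2 UMI differences ran from 0.83 to 1.27 (VSM_20, 7 days), 0.58 to 1.05 (VSM_22, 7 days), -1.50 to -0.035 (VSM_27, 7 days) and -0.0058 to 0.45 (VSM_22, room temperature). Mitochondrial differences at room temperature ran from -0.99 to 0.16 (VSM_20), -0.45 to 1.90 (VSM_22) and -0.50 to 1.23 (VSM_27), and after 2 days from -0.66 to 0.97, -2.47 to 0.43 and -2.45 to 0.57. S or G2M differences ran from -0.26 to 0.22 (VSM_27, room temperature), -0.56 to 0.13 (VSM_22, 2 days), -0.53 to 0.02 (VSM_27, 2 days), -1.57 to -0.82 (VSM_20, 7 days) and -1.31 to 0.02 (VSM_27, 7 days). Each 7-day library held 0 to 9 cells of VSM_20 or VSM_27; the highest such share, 1.91% of named cells for VSM_20, has a 95% Wilson interval of 1.01% to 3.60%.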
